A study of Rattus norvegicus with 4 samples.

Results

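Immediate early genes are transcribed within minutes of a stimulus from factors that are already in the cell, with no need for new protein. Mitogen-activated protein (MAP) kinases act on serum response factor with its ternary complex partners, and cyclic AMP acts on CREB, to switch them on. Most encode transcription factors (the FOS and JUN proteins of the AP-1 dimer, EGR1, NR4A1, MYC and ATF3), and others encode brakes on the same signal. DUSP1 is a phosphatase that inactivates MAP kinases, and ZFP36 (tristetraprolin) marks AU-rich mRNAs, several immediate early mRNAs among them, for decay. In fat the same genes answer insulin, catecholamines, glucocorticoids, cytokines and the handling of tissue, so a steady-state level is a snapshot of recent stimuli.

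The 10 genes described here, Fos, Jun, Junb, Egr1, Dusp1, Zfp36, Myc, Atf3, Nr4a1 and Ier2, were taken by name, with no cutoff on their values. Earlier results of these data were known when they were chosen. Every probe set (a group of short probes for 1 transcript) with 1 of these symbols as its only gene was used. This gave 14 probe sets for the 10 genes, of 15866 probe sets and 10411 named genes in all, with 1 probe set for each of 7 genes, 2 each for Fos and Dusp1 and 3 for Jun. The brightest probe set of a gene over the 4 arrays was taken as its main one. Visceral fat of male Wistar rats, 130 days old, gave the RNA of 2 obese and 2 control samples, each on 1 single-colour array. The labels name no diet, genotype, strain difference or treatment behind obesity, and no agent given to either group. They leave unsaid if RNA was pooled and if the 2 samples of a group were separate animals, so a p-value here measures sample-to-sample spread that may be only technical. The values are intensities on a linear scale, and their trimmed mean was nearly the same on every array as deposited (150.026 to 150.03).

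The fat cell markers Fabp4 (a fatty acid carrier) and Cfd (adipsin) had signals of 2853.1 to 3679.8 and of 3346.2 to 3533.9 across the 4 arrays, in a tissue labelled as fat. The array of obese replicate 1 stood apart in markers of other cells. Its summed signal over 10 smooth muscle and pericyte genes was 5060.4, against 2383.3 on obese replicate 2 and 2496.4 to 2673.7 on the control arrays, and of the 10 genes 1 (Myl9) was higher and 1 (Rgs5) lower in obese tissue without overlap. Over 6 mesothelial genes the sum was 1703 on obese replicate 1, 368.3 on obese replicate 2 and 789.2 to 951.8 on the control arrays. In bulk tissue, fewer cells of a type and less RNA per cell cannot be told apart.

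The genes split into those that separated the groups and those that varied as much within a group. Dusp1, Zfp36, Myc and Jun gave higher signals on both obese arrays than on both control arrays, by 1.71-fold, 1.58-fold, 1.71-fold and 1.27-fold. Atf3 gave a 2.05-fold lower signal in obese tissue, again with no overlap. The remaining 5 genes, Fos, Junb, Egr1, Nr4a1 and Ier2, had overlapping groups and differences between -0.03 and 0.08 on the log2 scale. None of the 10 passed limma's moderated test with p-values adjusted by Benjamini-Hochberg across the 12929 probe sets tested (lowest adjusted p = 0.373), and neither did any other probe set on the array (0%). At an unadjusted p under 0.05 there were 4 of the 10 genes higher and 1 lower, where 3.33% and 5.26% of the 9011 genes tested with their brightest probe set did so, and 1073 of all tested probe sets passed that limit. The 10 genes were chosen with earlier results known, so such counts cannot show an excess over all genes.

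Groups that did not overlap were common over the whole array. Of the 9011 genes, 16.4% were higher in obese tissue without overlap and 24% lower without overlap, beside 4 and 1 of the 10. With each array centred on its median those shares were 23% and 16.5%, and the counts for the 10 genes remained 4 and 1. The median log2 difference of the 10 genes was 0.08, and that of all 9011 genes was -0.04. Without control replicate 2 the number of the 10 genes above control was 8, with Fos, Junb, Nr4a1 and Ier2 added, where 28.8% of all genes lay above, and the median was 0.35. Without control replicate 1 the median was -0.08 and 4 of the 10 lay below control, close to the 39.3% of all genes that did. Single control arrays thus move the median and these counts.

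**Figure D1:**
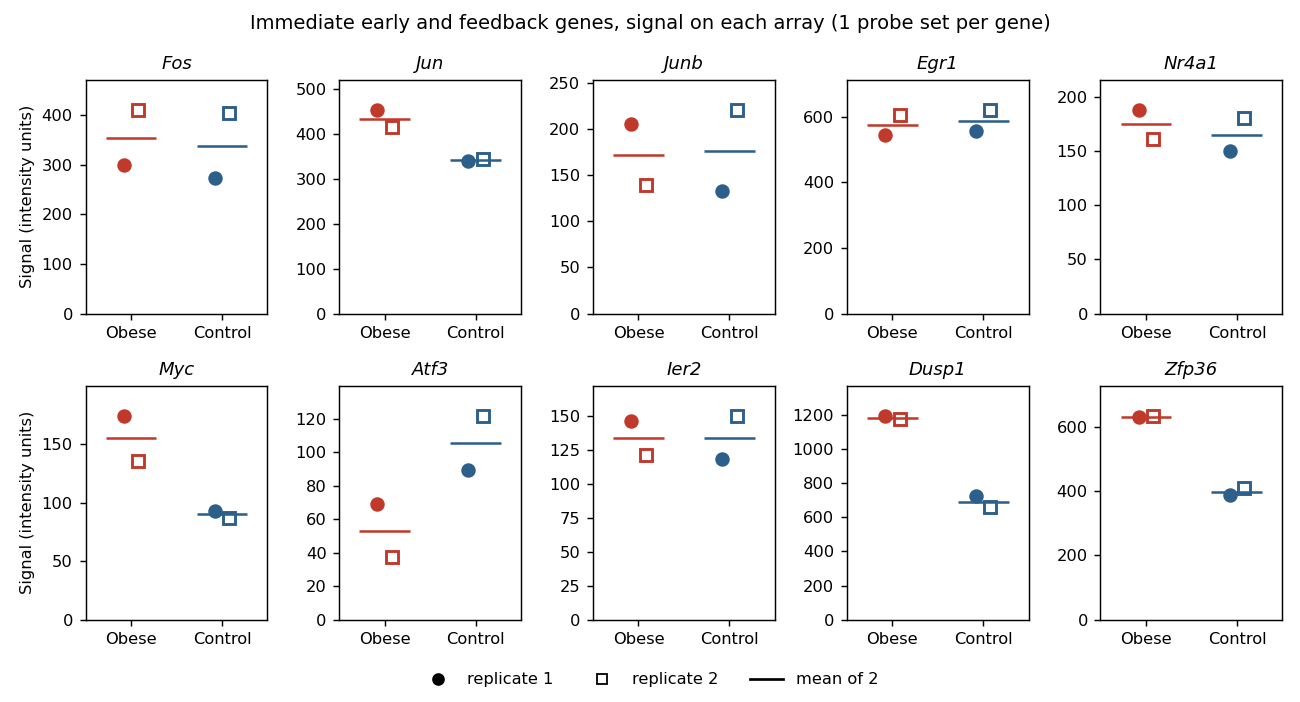
Signal of the main probe set of each gene in intensity units, starting at 0, with obese arrays on the left and control arrays on the right of each panel. Filled circles are replicate 1, open squares replicate 2 and lines the mean of the 2. Dusp1, Zfp36, Myc and Jun lie higher on both obese arrays, Atf3 lies lower on both, and the other 5 genes overlap.

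Dusp1, the MAP kinase phosphatase, had the smallest p of the 10. Its main probe set gave 1189.2 and 1171.6 on obese replicates 1 and 2, against 721.1 and 659.1 on control replicates 1 and 2. The 2 obese arrays were 0.02 apart on the log2 scale and the 2 control arrays 0.13 apart, so that the lowest obese signal was 1.62 times the highest control signal. The log2 difference was 0.78 ± 0.13 (SE), with a 95% interval of 0.47 to 1.09 and an adjusted p of 0.373 in limma. The other Dusp1 probe set, designed from the same source sequence, was dimmer, with 338.1 and 291.2 on the obese arrays and 183 and 117 on the control arrays. It gave a larger log2 difference of 1.10 ± 0.24 (95% interval 0.52 to 1.68), again with no overlap (limma adjusted p = 0.402). Leaving out single arrays moved it between 0.78 (without control replicate 2) and 1.42 (without control replicate 1), while the main probe set stayed between 0.71 and 0.84.

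Zfp36, the mRNA decay factor, was almost level between the obese arrays. It gave 630.2 and 632 on the obese arrays, against 388.4 and 408.5 on the control arrays, a mean of 631.1 ± 1.27 in obese and 398.5 ± 14.2 in control tissue (SD, n = 2 each). Its groups were further apart than the 0.07 on the log2 scale between the control arrays. The log2 difference was 0.66 ± 0.12 (95% interval 0.37 to 0.95, limma adjusted p = 0.402), and it stayed between 0.63 and 0.70 whichever array was left out. Both feedback genes in the set were thus higher in obese tissue in these samples, and neither passed the test over all probe sets.

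The promoter windows of Dusp1 and Zfp36, both higher in obese tissue, are shown with that of Ier2, whose groups overlapped, as windows with known kinds of control element of immediate early genes. They are RefSeq sequences of the rat assembly GRCr8, running from 250 bases before to 50 after the annotated start: chr10:17184603-17184902 on the plus strand for Dusp1, chr1:92799059-92799358 on the minus strand for Zfp36 and chr19:40399123-40399422 on the plus strand for Ier2. Capitals mark matches on either strand to the motifs searched: the CArG box of serum response factor, the cAMP response element TGACGTCA and its short form TGACG, the AP-1 site TGANTCA and the EGR site GCGNGGGCG. Every full cAMP response element also holds 2 overlapping short forms.
Dusp1: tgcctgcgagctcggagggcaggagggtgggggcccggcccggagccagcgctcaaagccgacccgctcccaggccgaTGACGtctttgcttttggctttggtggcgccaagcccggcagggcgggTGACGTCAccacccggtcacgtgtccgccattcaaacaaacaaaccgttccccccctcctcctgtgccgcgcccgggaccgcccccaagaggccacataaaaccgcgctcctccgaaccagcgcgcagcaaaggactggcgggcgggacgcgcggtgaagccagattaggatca
Zfp36: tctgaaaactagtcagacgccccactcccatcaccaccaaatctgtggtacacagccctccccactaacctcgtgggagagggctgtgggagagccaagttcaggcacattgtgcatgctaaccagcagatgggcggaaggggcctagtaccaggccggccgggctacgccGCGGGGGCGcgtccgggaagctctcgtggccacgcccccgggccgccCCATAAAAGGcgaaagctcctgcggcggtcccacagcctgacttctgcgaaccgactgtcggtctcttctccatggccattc
Ier2: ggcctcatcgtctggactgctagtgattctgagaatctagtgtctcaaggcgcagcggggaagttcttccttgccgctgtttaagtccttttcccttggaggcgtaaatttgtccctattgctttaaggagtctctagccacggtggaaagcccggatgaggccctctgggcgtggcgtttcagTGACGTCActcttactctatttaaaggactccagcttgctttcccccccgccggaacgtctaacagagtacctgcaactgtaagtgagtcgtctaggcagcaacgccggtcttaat
The full cAMP response element lies at -124 to -117 in the Dusp1 window and at -66 to -59 in the Ier2 window, counted from the start, and Dusp1 has a further short form at -172 to -168. Zfp36 has an EGR site at -79 to -71 and 1 match to the CArG box, CCATAAAAGG, at -32 to -23, where its letters also read as an AT-rich TATA-like run. A window was given for 6 of the 10 genes, and those of Fos, Jun, Myc and Atf3 were not used here. Of the 6, 2 held a CArG box (Egr1, with 2 matches, and Zfp36), 2 a full cAMP response element (Dusp1 and Ier2), 5 the short form (all but Zfp36) and 2 an EGR site (Zfp36 and Nr4a1). None of the 6 held the AP-1 site. Over all 33469 windows of the table these were found in 1.64% for the CArG box, 1.83% for the full element, 21.2% for its short form, 4.98% for the EGR site and 7.33% for the AP-1 site. Dusp1 and Ier2 shared the full element, with log2 differences of 0.78 and 0.005, and Zfp36 and Egr1 shared the CArG box, with 0.66 and -0.03. A match of letters is a description of the sequence and not a measured binding site.

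Among the AP-1 genes, Jun ran the same way in all of its probe sets while Fos and Junb did not separate the groups. Jun encodes a DNA-binding partner in AP-1 dimers. Its main probe set gave 453.4 and 416.5 on the obese arrays, against 340.9 and 345.6 on the control arrays. The obese arrays were both higher, by a log2 difference of 0.34 ± 0.12 (95% interval 0.04 to 0.64, limma adjusted p = 0.566). The second Jun probe set gave 300.1 and 294 in obese and 267.4 and 246.3 in control tissue, a difference of 0.21. The third gave 118.6 and 151.7 in obese and 98.1 and 101.6 in control tissue, a difference of 0.43, or 0.25 without obese replicate 2. Each of the 3 was without overlap, and with those of Dusp1, Zfp36 and Myc all 7 of 7 probe sets of the 4 higher genes were. Probe sets of 1 gene measure the same RNA and are not replicates.

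Fos, the inducible AP-1 partner that the first minutes of a stimulus switch on, gave 298.5 and 409.8 on the obese arrays, against 273.1 and 404.2 on the control arrays. Replicate 2 was the higher array in both groups, and the gaps within groups (0.46 and 0.57 on the log2 scale in obese and control) were larger than the difference between groups, 0.07 ± 0.24 (95% interval -0.53 to 0.67, limma adjusted p = 0.954). A dim Fos probe set gave 43.9 and 14.8 in obese and 31.8 and 40.9 in control tissue. The value of 14.8 lay under the floor of 20.8 to which dim signals were raised, so its log2 difference of -0.26 depends on that floor. Junb, which pairs with FOS proteins and is a weaker activator than JUN, gave 205 and 139 on the obese arrays, against 133 and 220.3 on the control arrays. The highest and the lowest signal were both control arrays, and the difference was -0.02 ± 0.30 (95% interval -0.76 to 0.72), a sign that turned with each of the 3 other scalings (0.02 to 0.06).

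Egr1, a zinc finger activator that feeds back on its own promoter, was the steadiest of the 5 genes with overlapping groups. It gave 545.2 and 604.8 on the obese arrays, against 555.8 and 619.4 on the control arrays. The arrays of the groups interleaved, and the log2 difference was -0.03 ± 0.13 (95% interval -0.36 to 0.30), or 0.05 with each array centred on its median. Nr4a1, an orphan nuclear receptor that cyclic AMP induces, gave 187.7 and 161.4 in obese and 149.8 and 180.1 in control tissue, a difference of 0.08 ± 0.17. Its 95% interval ran from -0.33 to 0.50. Ier2, a small nuclear protein induced by growth factors, gave 146.4 and 121.4 in obese and 118.1 and 149.5 in control tissue. Its means were 133.9 ± 17.7 and 133.8 ± 22.2 (SD, n = 2 each), and the difference was 0.005 ± 0.19 with an interval of -0.47 to 0.48. Limma's adjusted p was 0.962, 0.916 and 0.997 for these 3 genes. The intervals leave room for differences of either sign, so the overlap does not show that the groups were alike.

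**Figure D2:**
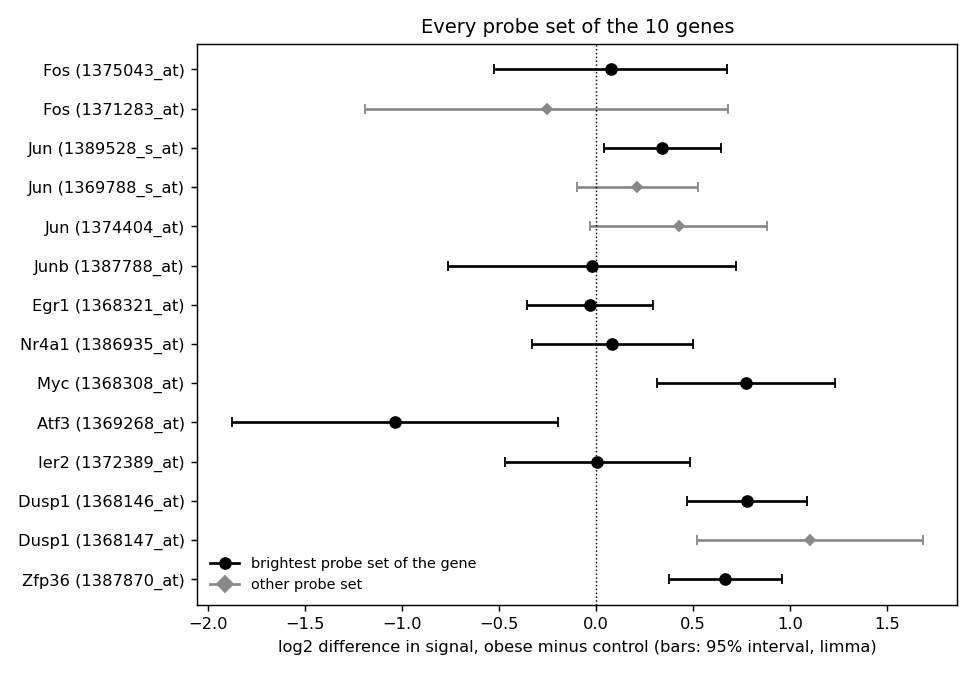
Log2 difference in signal, obese minus control, for all 14 probe sets, with 95% intervals from the limma fit as bars. Black circles are the main probe set of each gene and grey diamonds the others. The intervals of both Dusp1 probe sets, of Zfp36, of Myc and of the main Jun probe set lie above 0, and that of Atf3 lies below it.

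Myc, the growth-promoting transcription factor that dimerises with MAX, gave 173.5 and 135.8 on the obese arrays, against 93.2 and 86.5 on the control arrays. Both obese signals were higher, and the lower of them was 1.46 times the higher control signal. The log2 difference was 0.77 ± 0.19 (95% interval 0.31 to 1.23, limma adjusted p = 0.467). It was 0.60 without obese replicate 1 and 0.95 without obese replicate 2, the array with the lower Myc signal. Obese replicate 1 was also the array with the most smooth muscle and mesothelial signal. The part of these cells in the Myc values was not tested.

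Atf3, a repressor of the CREB family that stress signals and inflammatory stimuli induce, was the 1 gene of the set lower in obese tissue without overlap. It gave 69.3 and 37.2 on the obese arrays, against 89.5 and 121.4 on the control arrays, and both obese signals were lower, the higher of them still under the lowest control signal, which was 1.29 times as large. The log2 difference was -1.04 ± 0.34 (95% interval -1.88 to -0.20, limma adjusted p = 0.531). It was also the least even gene, with 0.90 on the log2 scale between the 2 obese arrays. Leaving out obese replicate 2 gave -0.59 and leaving out obese replicate 1 gave -1.49. With the floor raised to the 40th percentile of all signals it was -0.76. Markers of leukocytes moved the same way: 8 of 8 macrophage genes were lower in obese tissue and 6 did not overlap, with summed signals of 4268.2 to 4735.7 on the obese and 5788 to 7014.7 on the control arrays. All 7 tested lymphocyte genes were lower too, 4 without overlap, with sums of 619.3 to 740.6 on the obese and 1093.6 to 1557.5 on the control arrays over the 9 genes on the array. Of all 9011 genes 5103 were lower, and 24% were lower without overlap. The part of leukocytes in the Atf3 values was not tested.

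**Figure D3:**
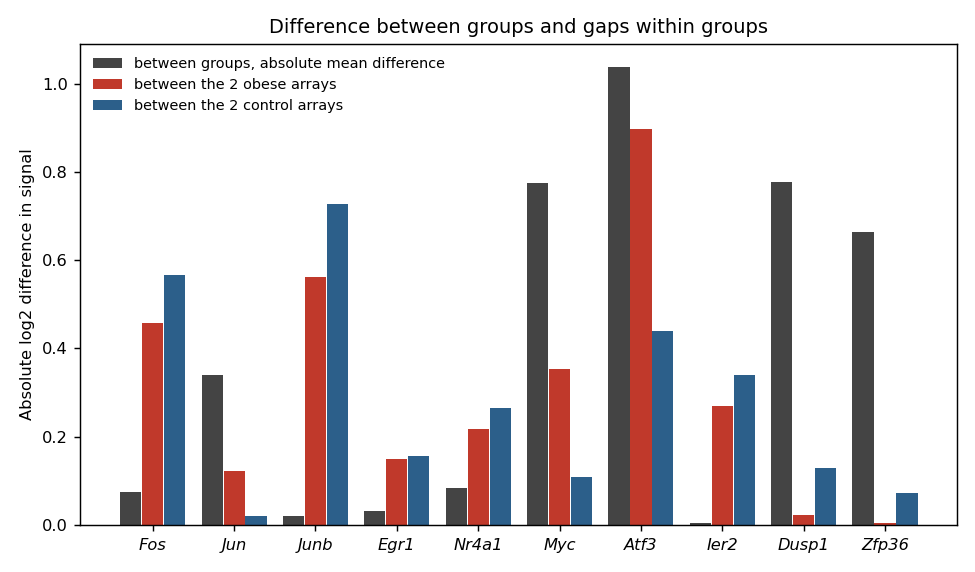
Absolute log2 difference between the group means (grey), between the 2 obese arrays (red) and between the 2 control arrays (blue), for the main probe set of each gene, starting at 0. For Jun, Myc, Atf3, Dusp1 and Zfp36 the grey bar is the tallest of its 3, and for the other 5 genes it is the shortest.

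For 5 of the 10 genes the difference between groups was larger than both gaps within groups, as it was for 26.8% of all 9011 genes. The gaps within groups ran one way for most of the 10 genes but not for all. Control replicate 2 was above control replicate 1 for 8 of the 10 genes, against 51.1% of all genes, and Dusp1 and Myc were the exceptions. Obese replicate 1 was above obese replicate 2 for 7 of the 10, against 56.5% of all genes, with Fos, Egr1 and Zfp36 the other way. Junb had the largest gap between the control arrays of the 10, 0.73 on the log2 scale, and Jun the smallest, 0.02.

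**Figure D4:**
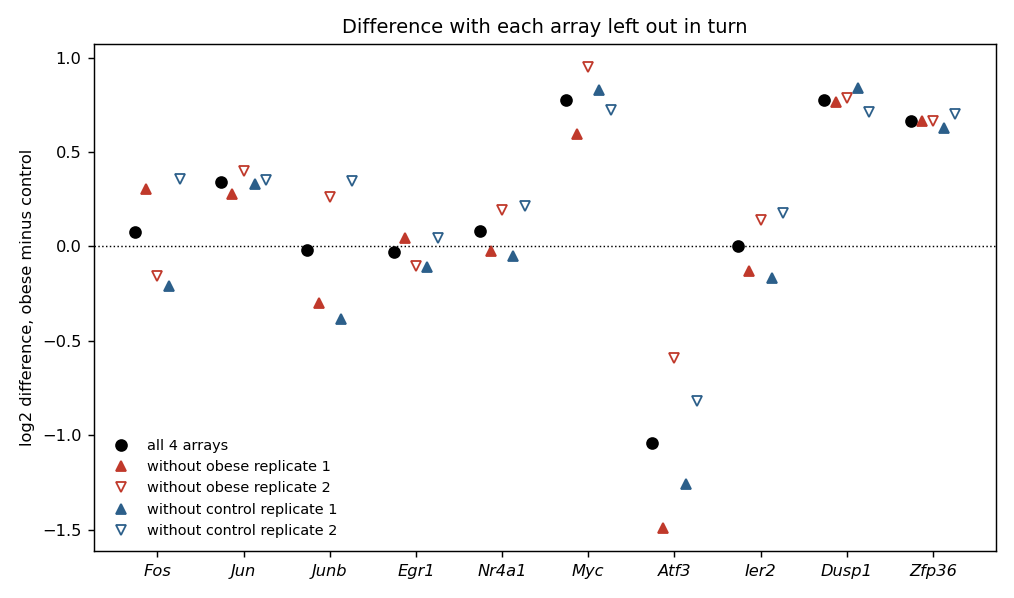
Log2 difference, obese minus control, of the main probe set of each gene with all 4 arrays (black) and with each array left out in turn. Dusp1, Zfp36, Myc, Jun and Atf3 stay on their side of 0 in all 5 versions, while Fos, Junb, Egr1, Nr4a1 and Ier2 fall on both sides of it.

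Related genes were set beside the 10 through 11 lists of relatives, partners, upstream factors and targets, with the 10 left out of them. Of 203 such genes on the array 194 were tested, 90 were higher and 104 lower in obese tissue, and 40 and 47 of them did not overlap. Of all 9011 genes 43.4% were higher, and 16.4% and 24% were higher and lower without overlap. The related genes had a median log2 difference of -0.02, and 0 passed limma's adjusted p of 0.05 (lowest 0.402). At limma's unadjusted p under 0.05 there were 15 higher and 11 lower, beside 3.33% and 5.26% of all genes. The values below describe the related genes, and no test of a list was made. The same shares of all genes apply to the counts of each list.

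Other partners of AP-1 dimers were split evenly, with 5 of 10 higher and 5 lower in obese tissue, 4 and 2 without overlap, and a median of 0.02. Atf4, the stress-induced ATF factor, gave 856.3 and 1182.6 in obese and 773.4 and 765 in control tissue, for a log2 difference of 0.39, and the repressor Jdp2 gave 0.24. Atf4 was at 0.155 without obese replicate 2 and Jdp2 at 0.138 without control replicate 2. Fosl1 and Batf3 were lower by differences of -0.37 and -0.27 and did not overlap. Maf was at -0.07 with overlap, and at 0.01 with each array centred on its median. In the EGR, NR4A and KLF families, 5 of 12 were higher and 7 lower (5 and 2 without overlap, median -0.02). Klf2, an inhibitor of adipocyte differentiation, differed by 0.37 and Klf4 by 0.27, and Klf10 by -0.38. Klf2 has 3 further probe sets, at 0.49, 0.37 and -0.01, and only the second of these had no overlap. With single arrays left out, Klf4 lay between 0.0797 and 0.47, Klf2 between 0.203 and 0.542 and Klf10 between -0.544 and -0.221. The lowest Klf4 and the weakest Klf10 value were those without obese replicate 2, and the lowest Klf2 value that without control replicate 2.

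Nr4a3, the sister gene of Nr4a1, was the clearest case of probe sets that disagree. Its main probe set gave 87.6 and 60.9 on the obese arrays, against 43.3 and 44.3 on the control arrays, a log2 difference of 0.74. The other gave 35.1 and 33.7 on the obese arrays, against 49.3 and 56.2 on the control arrays, a difference of -0.61. Both were without overlap and in opposite directions, so no direction can be given for Nr4a3, and their mean differed by 0.06. Without obese replicate 1 the main probe set of Nr4a3 was at 0.476. Nr4a2 was at -0.22, or -0.122 without obese replicate 1.

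Feedback on MAP kinases beyond Dusp1 was not uniformly higher. Of 15 genes 8 were higher and 7 lower, with 4 and 2 without overlap and a median of 0.02. Errfi1, an inhibitor of the EGF receptor family, had the largest difference of any related gene named here. It gave 867.3 and 645.4 in obese and 422.1 and 204.4 in control tissue, for a log2 difference of 1.35 ± 0.35 (limma adjusted p = 0.467). Without control replicate 2, its lowest array, it was 0.83. Pea15, which holds ERK in the cytoplasm, differed by 0.56 and by 0.62 with its other probe set, and the first was at 0.274 without obese replicate 2. Other dual-specificity phosphatases were mixed. Dusp4 gave 41.1 and 43.4 in obese and 38.2 and 37.4 in control tissue, higher without overlap by a small difference of 0.16. Dusp5 was lower by a difference of -0.52 without overlap, and Dusp2 (-0.47), Dusp6 (-0.17), Dusp3 (0.02) and Dusp14 (0.09) overlapped. Dusp4 and Dusp14 were added to these after their values were seen. Dusp3 turned to -0.04 with quantile normalization.

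The relatives of Zfp36 had differences below 0. Zfp36l1 and Zfp36l2, which bind the same AU-rich elements, differed by -0.28 and -0.30, with overlap for Zfp36l1 only. Zfp36l1 was at -0.107 without obese replicate 2. Zfp36l2 gave 603.3 and 560.4 on the obese arrays, against 700.4 and 731 on the control arrays, and its 2 dimmer probe sets (-0.06 and -0.17) overlapped. Of 14 genes of this family and of mRNA decay 4 were higher and 10 lower (3 and 6 without overlap, median -0.145). Tob2 and Tob1, which recruit the deadenylase complex, differed by 0.31 and 0.16, the RNA-stabilising protein Elavl1 by -0.23 (-0.141 without control replicate 2) and Btg1 by -0.07, or 0.01 with each array centred on its median.

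Around Myc, 3 of 9 network genes were higher and 6 lower (0 and 3 without overlap, median -0.04). Mnt and Mxd1, which compete with MYC for MAX, were lower without overlap. Mnt gave 162.9 and 135.8 in obese and 230.7 and 224.1 in control tissue, for a log2 difference of -0.61 ± 0.15 (limma adjusted p = 0.467), and Mxd1 was at -0.32. Mlx (0.10) and Zbtb17 (0.28) overlapped. Of 24 MYC target genes 10 were higher and 14 lower, with 3 and 8 without overlap and a median of -0.10. Nop58 (ribosome assembly) and Nme1 (nucleotide synthesis) differed by 0.31 and 0.24, while Cdk4, the cell cycle kinase, and Shmt1, a folate enzyme, differed by -0.34 and -0.57. Shmt1 was at -0.282 without control replicate 1 and at -0.864 without control replicate 2. Of all 9011 genes 43.4% were higher, close to the 10 of 24, so these counts do not set the target genes apart.

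Other immediate early and early response genes had differences from -0.75 to 1.01. Of 38 tested 22 were higher and 16 lower, 13 and 7 without overlap, with a median of 0.09, and 3 more were too dim to test. Ccn1, a matrix protein induced by serum, gave 175.9 and 197.2 in obese and 101.8 and 117.1 in control tissue, for a log2 difference of 0.77 ± 0.16. Sgk1, a kinase that serum and glucocorticoids induce, gave 590.6 and 619.2 in obese and 421.6 and 325.5 in control tissue, a difference of 0.71 ± 0.16. Rhob, an early response GTPase, and Txnip, a brake on glucose uptake, differed by 0.39 and 0.11. Lower without overlap were Ier5, an early gene named with Ier2, and Plk2, a kinase of the early serum response. Ier5 gave 259.4 and 268.1 in obese and 400.7 and 487.6 in control tissue (-0.75 ± 0.15), and its dim other probe set did not reach the floor of 20.8 on each obese array, which leaves only a bound, at least 1.21-fold lower in obese tissue. Plk2 gave 119.9 and 124.1 in obese and 199.1 and 205.5 in control tissue (-0.73 ± 0.14). Limma's adjusted p was 0.402 for Ccn1, Ier5 and Plk2 and 0.457 for Sgk1.

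Upstream of the 10 genes, small differences prevailed. In the MAP kinase cascade 10 of 26 genes were higher and 16 lower, 2 and 8 without overlap, with a median of -0.10. Rras and Mapk12 were at 0.26 and 0.24, and Map3k1 and the adaptor Grb2 at -0.36 and -0.26. Without obese replicate 2, Rras was at 0.0584 and Mapk12 at 0.0947. Of 22 transcription factors that act on immediate early promoters 7 were higher and 15 lower (2 and 7 without overlap, median -0.13). Creb1, the activator at cAMP response elements, gave 95.7 and 78.9 in obese and 127.2 and 126.1 in control tissue, for a log2 difference of -0.54 ± 0.18 (limma adjusted p = 0.526). Its other probe set was at -0.21, also without overlap. Mrtfa, a coactivator of serum response factor, was at -0.53, or -0.292 without obese replicate 2, and Creb3 at 0.40. Srf itself gave 0.20 with its main probe set and -0.28 with the other, both without overlap, so that its direction is undecided.

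Genes around ATF3 in the integrated stress response did not follow its lower signal. Of 19, 13 were higher and 6 lower, 4 and 2 without overlap, with a median of 0.02. Ddit3 (CHOP), a partner of ATF factors, gave 176.7 and 238 on the obese arrays, against 118.4 and 125.1 on the control arrays, a log2 difference of 0.75 ± 0.19 (limma adjusted p = 0.467). Phgdh, an enzyme of serine synthesis and a target of ATF4, differed by 0.68, or 0.44 without obese replicate 2. The kinases Eif2ak1 and Eif2ak3 (PERK) were at -0.22 and -0.27, and Eif2ak3 at -0.134 without control replicate 1.

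Dusp1 and Zfp36 are also known targets of glucocorticoids. A list of other such genes had a median above 0, and its size depended on control replicate 2. With 11 of 15 higher and 4 lower, 5 and 0 without overlap, its median was 0.29. It was 0.0746 without control replicate 2, and the larger SD of the list's median level within a group was 0.271 on the log2 scale, the largest of the 11. Sgk1, Nfkbia and Errfi1 are among its genes that other lists here also hold. Nfkbia, the inhibitor of NF-kappaB, gave 651.1 and 472.2 in obese and 345.3 and 219.4 in control tissue, for a log2 difference of 1.01 ± 0.26 (limma adjusted p = 0.467), or 0.68 without control replicate 2. Fkbp5, a classic glucocorticoid target, overlapped with 253.9 and 183.2 in obese and 324.1 and 176.4 in control tissue (-0.15), and so did Glul (-0.15).

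**Figure D5:**
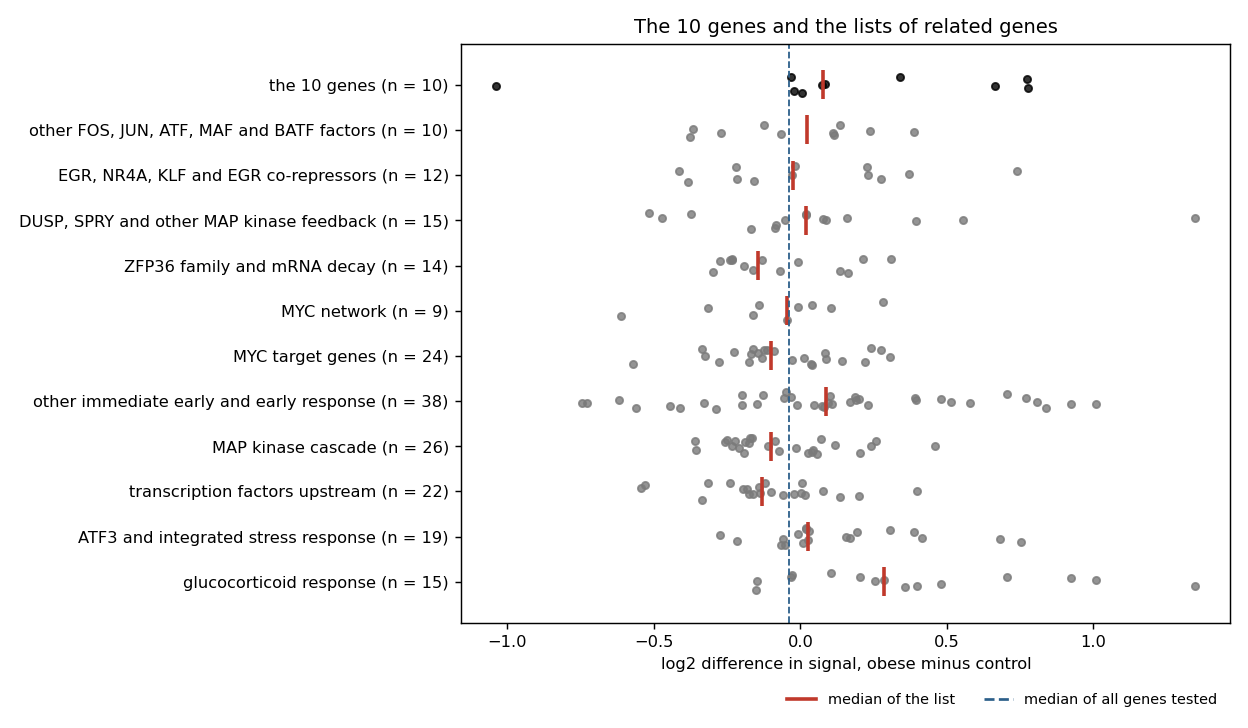
Log2 difference, obese minus control, of each tested gene (points) in the 10 genes and in the 11 lists of related genes, with the median of each list (red line) and of all 9011 genes (dashed blue line). The list medians lie between -0.145 and 0.29, and single genes spread from -1.04 to 1.35.

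Other cell markers gave these values, beside 16.4% of all 9011 genes higher and 24% lower without overlap. Of 8 adipocyte markers 7 were higher and 1 lower in obese tissue, 2 and 0 without overlap, with a median of 0.16. Of 8 endothelial markers 3 were higher and 5 lower, 2 and 2 without overlap, with a median of -0.07. Fibroblast markers had a median of -0.16, with 2 of 10 higher and 8 lower, 2 and 4 without overlap. The smooth muscle list had 8 of 10 higher (median 0.425) and the 5 tested mesothelial genes had 3 higher (median 0.26), and both sums were highest on obese replicate 1. Summed adipocyte signal was 13586.3 and 16383.3 on the obese and 13937.7 and 13422.6 on the control arrays. The main probe sets of Dusp1 and Zfp36 differed by 0.02 and 0.004 on the log2 scale between the 2 obese arrays. The part of any of these cells, or of leukocytes, in the Dusp1 and Zfp36 values was not tested.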

How the data were processed

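Per the labels, RNA of visceral fat in 2 obese and 2 control samples was measured on 4 single-colour arrays. The deposited intensity values, 1 per probe set and array, are linear and non-negative from the values. For the scanner, software and the authors' normalization, the sources used here give nothing. Because the arrays' means after trimming 2% at each end lay within 5%, values were used as deposited. No detection call was used. Of 15923 probe sets, 57 controls were left out. The platform's annotation gave 1 symbol to 12783, several to 312 and none to 2771 of the rest, and only probe sets with 1 symbol are named here. Gene identifiers were matched to a GRCr8 table, which held 12748 and changed 0 symbols.

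Signals under 20.8, the 20th percentile of all values, were set to it, log2 was taken, and the 12929 probe sets with at least 2 of 4 arrays above the floor were tested. The fit was limma 3.58.1 in R 4.3.3 (lmFit, eBayes with trend, 5.83 degrees of freedom), for obese minus control, with two-sided p-values adjusted by Benjamini-Hochberg over all of them. An exact permutation test of 2 against 2 cannot give a two-sided p below 0.333 and was not run. The number of arrays limits the precision. Log2 differences carry moderated standard errors.

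The 10 genes and the lists were chosen with earlier results of these data known. From each list of related genes the 2 with the largest and the 2 with the smallest t were named, and from 5 lists also the 2 with the highest mean log2 signal. The limit to 5 lists was set after their values were seen. Alternatives were 3 scalings, 2 other floors, a pseudocount of 16, 2 filters, 2 variance models, a replicate block, each array left out and the mean over probe sets. Code was tested on simulated data.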

Additional observations from a re-analysis of the deposited data

How the results depend on the processing

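Dusp1, Zfp36, Myc, Jun and Atf3 kept their direction under all 16 alternatives, and with 1 probe set per gene none of the 10 genes or of the related genes in the lists passed an adjusted p of 0.05 under any of them. The log2 difference ranged from 0.70 to 0.94 for Dusp1, 0.62 to 0.74 for Zfp36, 0.60 to 0.95 for Myc, 0.28 to 0.42 for Jun and -1.49 to -0.59 for Atf3. Over all probe sets 0 passed, and 3 did with a pseudocount, 6 without the filter, 1 without the trend, 1 with robust eBayes and 0 to 43 with an array left out, a fit in which the lone array is taken to vary as the other 2 do. With arrays left out, the 10 genes had a median of -0.0793 to 0.347, with 4 to 8 above and 1 to 4 below control, where 28.8 to 33% of all genes lay above and 36.1 to 46.2% below. Differences within the noise changed sign. With each array centred on its median these were Egr1 (0.0481), Junb (0.0591), Maf (0.0139) and Btg1 (0.0109). With quantile normalization and cyclic loess they were Junb (0.0342 and 0.0242) and Dusp3 (-0.0382 and -0.00823), and with the mean over probe sets Fos (-0.0905) and Srf (-0.0406). Arrays left out moved Fos between -0.209 and 0.357, its dim probe set between -0.794 and 0.284, Junb between -0.384 and 0.344, Egr1 between -0.109 and 0.0471, Nr4a1 between -0.0493 and 0.216 and Ier2 between -0.165 and 0.175. The same range was -0.224 to 0.0869 for Btg1, -1.01 to 0.0657 for Dusp2, -0.0494 to 0.0911 for Dusp3, -0.355 to 0.0208 for Dusp6 and -0.588 to 0.29 for Fkbp5. It was -0.421 to 0.116 for Glul, -0.14 to 0.00964 for Maf, -0.0134 to 0.22 for Mlx and -0.106 to 0.673 for Zbtb17. The cause of these changes was not tested. The titles number the samples 1 and 2 in each group, and the labels do not say what the numbers mean. Deviations of same-numbered arrays correlated with 0.05. With 2 arrays per group this cannot tell if the numbers pair them. With the replicate number as a block, 0 probe sets passed. Arrays without detection calls limit what can be said of dim probe sets such as the second of Fos.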
